A study of Mus musculus with 16 samples.

Results

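PD-1hi effector CD8 T cells were set against memory CD8 T cells from the spleens of leukemic mice, across 22180 genes. The 4 arrays titled as PD-1 hi CD8 and the 4 titled as memory CD8 were taken, 8 of the 16 arrays of the series. All were from female mice of the C57BL/6 background (the strain label reads C56BL/6) that had received leukemia cells from Eµ-TCL1 mice 6 weeks earlier. In Eµ-TCL1 mice the TCL1 oncogene is driven in B cells by immunoglobulin control elements, and they develop a disease resembling human chronic lymphocytic leukemia (CLL). The recipients were not themselves Eµ-TCL1 transgenic. T cells were sorted by flow cytometry as TCRb+ CD8+ cells lacking lineage markers. Memory cells were CD127hi CD44hi. PD-1hi effectors were CD127low, CD44int-hi and high for PD-1. A PD-1int effector subset differed from these by its PD-1 gate, and naive cells were CD127hi CD44low. Every subset, naive cells included, therefore came from mice with leukemia, and leukemia-free mice were not analysed here. The age of the mice is not given in the labels, nor whether 2 arrays of a subset came from separate mice, so the p-values describe the spread between these arrays, which may be technical.

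Memory CD8 T cells are long-lived and quiescent, depend on interleukins 7 and 15 for survival, and recirculate through lymphoid organs. Effector cells that keep meeting antigen can become exhausted. Such cells hold several inhibitory receptors at once, with PD-1 the best known, and are marked by the transcription factor TOX. In chronic infection and cancer, exhausted cells lose parts of their cytokine output and no longer respond to interleukin 7.

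The values are log2 expression per gene from whole-transcript arrays, and a difference of 1 is a doubling. Differences are PD-1hi minus memory, given with the standard error of a limma fit of all 16 arrays (n = 4 arrays per subset), and adjusted p stands for the Benjamini-Hochberg value of limma's moderated test over all 22180 genes. A gene is called changed at an adjusted p under 0.05. The array medians lay between 6.394 and 6.489, and the median standard error of a difference was 0.104. Mean Pearson correlations over genes were 0.991 within PD-1hi, 0.993 within memory and 0.967 between them. Component 1 of the 8 arrays held 70.3% of the variance, with PD-1hi from 34.1 to 37.2 and memory from -38.1 to -32.4. The precision is limited by the number of arrays, and differences of dim genes can be compressed on arrays, for which the values used here hold no background level. In bulk RNA from sorted cells, fewer cells that express a gene and less RNA per cell cannot be told apart.

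Between memory and PD-1hi, 4868 genes changed (21.9% of those tested), 2400 higher (10.8%) and 2468 lower (11.1%) in PD-1hi. At least 2-fold changes were found for 1014 genes (4.57%), 544 higher (2.45%) and 470 lower (2.12%). Past 8-fold were 33 genes higher (0.149%) and 25 lower (0.113%). The 4 and 4 arrays did not overlap for 5294 genes (23.9%). Calls were unevenly spread over expression levels. Of the 5545 dimmest genes 3.21% were called, and of as many brightest genes 44.9%. The counts of list members below are to be read beside these shares, since lists were not matched to other genes by level. The lists were also chosen with earlier results of these data known, so a list share above these is not independent support. The smallest called difference was 0.18 and the largest not called was 2.39. At the threshold itself, 4933401H06Rik (difference -0.25, adjusted p = 0.05) was the last gene inside and Igsf23 (-0.45, adjusted p = 0.0501) the first outside. The median difference over all genes was 0.01.

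**Figure D1:**
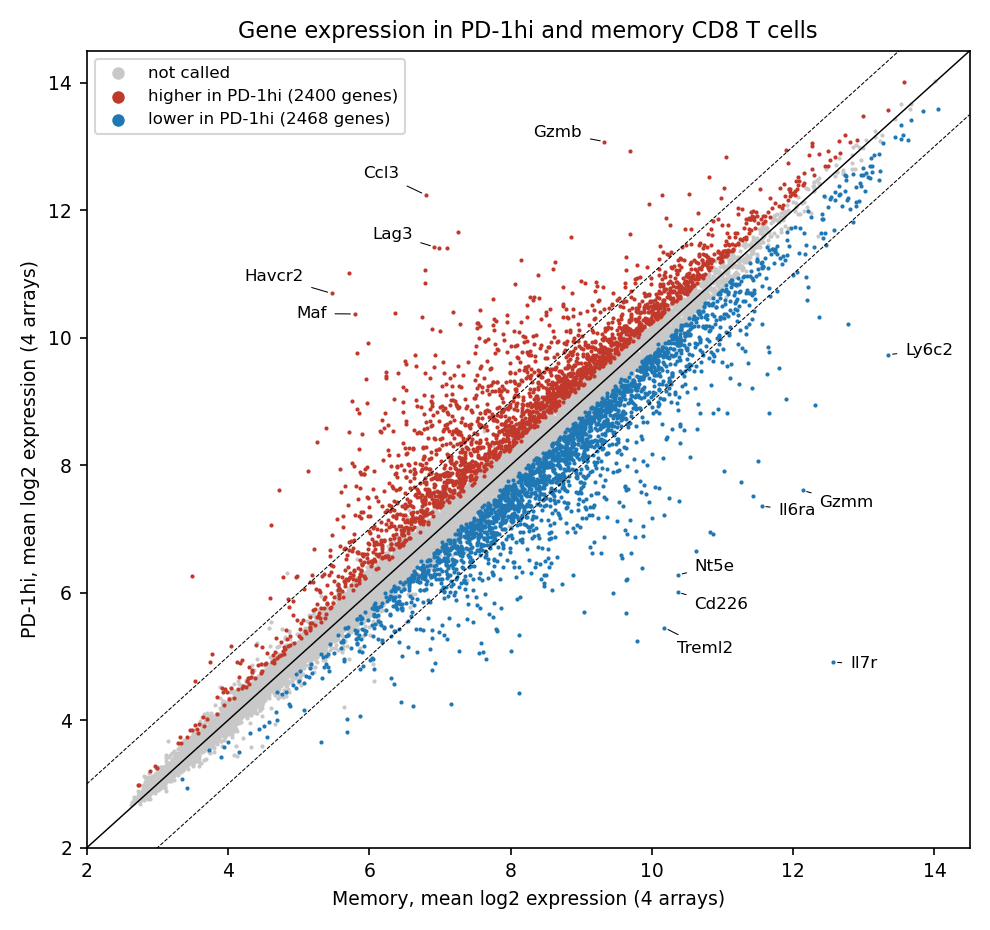
Mean log2 expression of 22180 genes in memory (x axis) and PD-1hi (y axis) CD8 T cells, 4 arrays each. Red genes (2400) were called higher and blue genes (2468) lower in PD-1hi by limma, grey genes were not called, the solid line marks equal levels and the dashed lines a 2-fold difference. Il7r lies farthest below the line and Ccl3 farthest above it.

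The genes of the 3 surface proteins used in the sort were read first, as a check of the labels and not as findings. Il7r encodes CD127. Its level was 12.53, 12.60, 12.67 and 12.48 on the memory arrays and 4.48, 5.67, 4.60 and 4.90 on the PD-1hi arrays, a difference of -7.66 ± 0.20. That was the largest of all differences, and every PD-1hi array lay far below every memory array, replicate 2 the least far. Pdcd1, which encodes PD-1, was at 7.02, 7.23, 7.02 and 7.14 in memory and 11.52, 11.47, 11.18 and 11.44 in PD-1hi (4.30 ± 0.15). Cd44 RNA was lower in PD-1hi, with 9.13, 8.94, 8.84 and 9.06 in memory against 7.94, 7.85, 7.85 and 8.10 (-1.06 ± 0.10), and naive cells averaged 6.07. Il7r and Pdcd1 lay on the side their gates call for, and the arrays did not overlap for any of the 3 genes. The memory gate was CD44hi and the PD-1hi gate CD44int-hi, so the PD-1hi gate also admitted cells with less CD44. The part of the gates in the Cd44 difference was not tested. PD-1int cells, which differed from PD-1hi by the PD-1 gate, lay just outside the threshold for Cd44 against memory (-0.30 ± 0.10, adjusted p = 0.0525).

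Inhibitory receptors and the ectoenzymes that shape extracellular adenosine were mostly higher in PD-1hi cells. Of 21 measured members 12 were higher, Pdcd1 among them, 3 were lower and 6 did not pass. That is 71.4% called against 21.9% of all genes, with a median difference of 1.55 against 0.01 over all genes. Havcr2 encodes TIM-3, a receptor of exhausted cells. It read 5.81, 5.53, 5.34 and 5.19 in memory and 10.67, 10.54, 10.99 and 10.59 in PD-1hi. The groups lay far apart, and the difference was 5.23 ± 0.19, or 37.4-fold (adjusted p = 2.47e-12). Tigit, an inhibitory receptor that competes with CD226 for the ligand CD155, read 7.42, 7.01, 7.16 and 7.45 in memory against 11.63, 11.60, 11.62 and 11.76, 21.0-fold higher (4.39 ± 0.11, adjusted p = 1.49e-14). Lag3, which binds MHC class II, was at 6.89, 7.19, 6.64 and 6.97 in memory and 11.07, 11.89, 11.47 and 11.26 in PD-1hi, 22.7-fold higher (4.50 ± 0.17). Cd244a, the SLAM-family receptor 2B4, was 16.3-fold higher (4.03 ± 0.20), with no array of either group near the other. The remaining members that rose, from Entpd1 (3.23) and Ctla4 (3.13) down to Cd96 (0.24), are named here after their values were seen.

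The 3 members that were lower did not share a size. Nt5e encodes CD73, which turns AMP into adenosine. It was at 10.39, 10.45, 10.17 and 10.49 in memory and at 6.27, 6.18, 6.29 and 6.39 in PD-1hi, 17.04-fold lower (-4.09 ± 0.19, adjusted p = 3.46e-11). Entpd1 encodes CD39, the enzyme upstream of CD73 that makes AMP from ATP, and stood at 7.52, 6.99, 6.79 and 7.41 in memory against 10.34, 10.31, 10.43 and 10.54, 9.36-fold higher (adjusted p = 1.22e-11). The pair of adenosine enzymes thus moved in opposite directions without overlap of arrays. Btla, whose ligand is HVEM, was 1.88-fold lower (-0.91 ± 0.13, adjusted p = 4.68e-05). Lair1, a collagen receptor, passed narrowly (-0.48 ± 0.17, adjusted p = 0.0474). Its arrays overlapped, and the call was lost in 6 alternatives (limma adjusted p 0.0746 to 0.178): the 8 arrays alone, without PD-1hi replicate 2 or 4, and without memory replicate 1, 3 or 4.

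**Figure D2:**
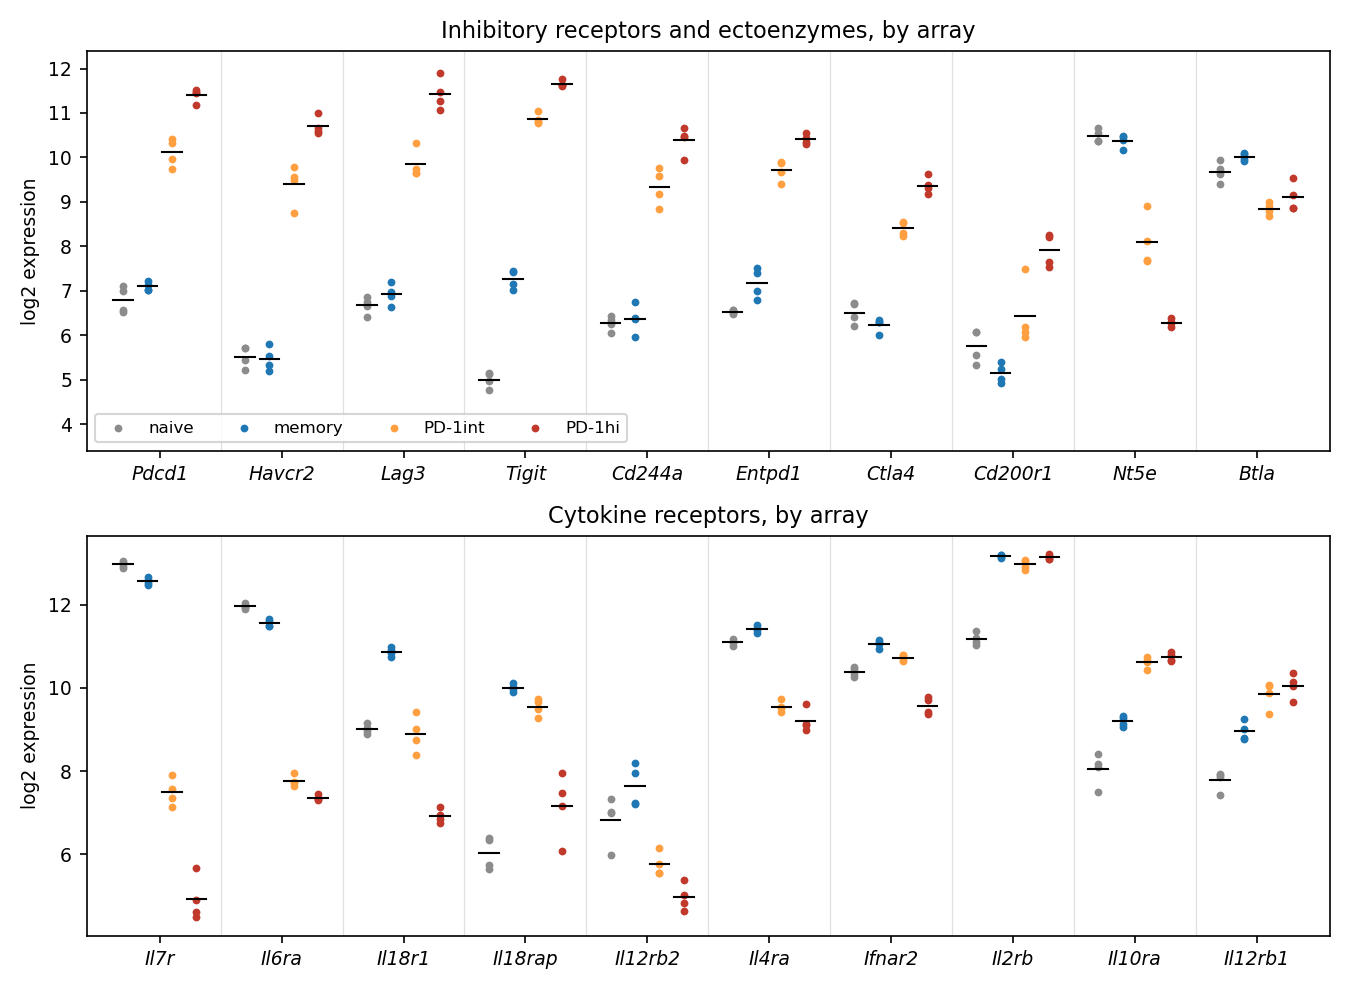
Log2 expression of 10 inhibitory receptors or ectoenzymes (top) and 10 cytokine receptors (bottom) on each of 4 naive, memory, PD-1int and PD-1hi arrays, with a black bar at the mean of a subset. Most receptors of the top panel are low in naive and memory and highest in PD-1hi, while Nt5e and most cytokine receptors run the other way.

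Transcription factors of exhausted and effector cells rose as a group. Of 24 measured members 18 were higher, 3 lower and 3 not called (median 1.00), 87.5% called against 21.9% of all genes. Tox, a driver of the exhausted state, was at 8.99, 8.78, 8.71 and 8.93 in memory and 11.47, 11.63, 11.56 and 11.64 in PD-1hi, 6.61-fold higher (2.72 ± 0.10, adjusted p = 4.38e-12). Memory did not exceed naive cells in this gene, whose naive mean was 9.22. Maf, a factor tied to interleukin 10 production, read 6.04, 5.69, 5.39 and 6.05 in memory against 10.28, 10.10, 10.84 and 10.27 (4.58 ± 0.20, 23.9-fold). Nr4a2, a nuclear receptor that antigen signals switch on, read 6.44, 7.06, 6.57 and 7.10 against 11.14, 10.78, 10.49 and 11.03 (4.07 ± 0.17, 16.8-fold). Bhlhe40, a basic helix-loop-helix factor, was 5.13-fold higher (2.36 ± 0.13).

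The pair of T-box factors diverged. Tbx21 encodes T-bet. It was at 10.09, 10.28, 10.05 and 10.38 in memory and 9.07, 9.18, 9.27 and 9.15 in PD-1hi, 2.04-fold lower (-1.03 ± 0.13, adjusted p = 1.17e-05). Eomes was at 10.14, 10.33, 10.20 and 10.33 in memory and 11.25, 11.39, 11.31 and 11.22 in PD-1hi, 2.06-fold higher (1.04 ± 0.09, adjusted p = 9.8e-08). Neither gene's arrays overlapped. Rbpj, the DNA-binding partner of Notch, was lower (-0.57 ± 0.14, adjusted p = 0.00434), as was Nfatc2 by less (-0.29 ± 0.08, adjusted p = 0.0156), whose arrays overlapped. The Nfatc2 call was lost with the 8 arrays alone and without PD-1hi replicate 1 or memory replicate 1 (limma adjusted p 0.0553 to 0.0623).

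Factors that hold the naive, memory and progenitor states ran the other way. Of 17 measured, 9 were lower and 2 higher (median -0.39), 64.7% called against 21.9% of all genes. Satb1, a genome organiser, was at 11.29, 11.18, 11.33 and 11.26 in memory against 7.25, 7.79, 8.40 and 7.53 in PD-1hi, 11.51-fold lower (-3.52 ± 0.23, adjusted p = 3.29e-09). The memory arrays were tight and the PD-1hi arrays spread over more than 1 unit. Lef1, a partner of TCF-1 in memory cells, read 11.29, 11.24, 11.19 and 11.23 against 9.22, 9.29, 9.41 and 9.20 (-1.96 ± 0.09, 3.89-fold lower). Bach2, a repressor of effector genes, was 2.73-fold lower (-1.45 ± 0.12), and Foxp1, a quiescence factor, 2.60-fold lower (-1.38 ± 0.09). The exceptions were Ets1 (0.41 ± 0.07) and Ikzf1 (0.32 ± 0.07), both small and higher in PD-1hi. Tcf7, the best known member, had no probe set with a single gene name and was not analysed here.

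Cytokine receptors were mostly lower where they changed. Of 25 measured, 13 were lower, Il7r among them, 3 higher and 9 not called (median -0.30). The share called was 64%, against 21.9% of all genes. Il6ra, the interleukin 6 receptor, had the smallest adjusted p of the whole comparison. It was at 11.49, 11.65, 11.48 and 11.60 in memory and 7.45, 7.33, 7.31 and 7.34 in PD-1hi, 18.4-fold lower (-4.20 ± 0.08, adjusted p = 1.56e-16). Il18r1, the binding chain for interleukin 18, read 10.90, 10.83, 10.73 and 10.98 against 6.75, 7.14, 6.84 and 6.95 (-3.94 ± 0.16, 15.3-fold lower). Its signalling partner Il18rap, chosen after its value was seen, was 7.10-fold lower (-2.83 ± 0.27). Il4ra, the interleukin 4 receptor, was 4.62-fold lower (-2.21 ± 0.11, adjusted p = 9.78e-11). Higher were Il10ra, the interleukin 10 receptor (1.54 ± 0.14), Il12rb1 of the interleukin 12 receptor (1.09 ± 0.17) and Il21r (0.40 ± 0.14, adjusted p = 0.044), whose call was lost in 7 alternatives (0.0697 to 0.131): quantile normalization and without PD-1hi replicate 2, 3 or 4 or memory replicate 1, 3 or 4. Il12rb2, the partner chain of Il12rb1, fell 6.41-fold (-2.68 ± 0.26). Il2rb, the chain shared by the interleukin 2 and 15 receptors, was high in both subsets, at 13.16, 13.09, 13.10 and 13.22 in PD-1hi against 13.19, 13.13, 13.14 and 13.18 (-0.02 ± 0.08, adjusted p = 0.934). These arrays overlapped, and Il12rb2 and Il2rb were chosen after their values were seen.

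Receptors for homing and tissue exit were lower where they changed, save 1. Of 19 measured, 8 were lower, 1 higher and 10 not called (median -0.22). The share called was 47.4%, against 21.9% of all genes and 44.9% of the 5545 brightest. Ccr7, which brings T cells into lymph nodes, had its lowest memory array at 9.64 and averaged 9.88 there, against 6.49, 6.75, 7.37 and 6.94 in PD-1hi, 7.94-fold lower (-2.99 ± 0.15, adjusted p = 8.47e-11). S1pr1, the sphingosine 1-phosphate receptor that lets cells leave lymphoid organs, was 2.88-fold lower (-1.53 ± 0.10). Gpr183, an oxysterol receptor that positions lymphocytes, was 5.75-fold lower (-2.52 ± 0.16). Cx3cr1, the fractalkine receptor of effector cells, was the exception, at 7.91, 7.72, 7.49 and 7.91 in memory against 10.44, 10.24, 10.32 and 9.81 (2.45 ± 0.16, 5.45-fold higher). All 4 genes separated the groups without overlap.

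Integrins and adhesion molecules changed in both directions, 8 higher and 11 lower of 20 measured, Cd44 among the latter. Of that list 95% were called, against 21.9% of all genes. Itga4, the alpha chain of VLA-4, was at 11.25, 11.12, 10.78 and 11.03 in memory and 12.83, 12.80, 12.91 and 12.82 in PD-1hi (1.79 ± 0.09, 3.46-fold higher). Itgb1, the beta chain of VLA-4, was at 10.11, 10.04, 9.89 and 9.98 in memory and 8.35, 8.42, 8.16 and 7.81 in PD-1hi (-1.82 ± 0.17, 3.53-fold lower, adjusted p = 1.74e-07). So the chains of that integrin had opposite signs. The vitronectin receptor showed the same split, with Itgav 3.14-fold higher (1.65 ± 0.12) and Itgb3 2.64-fold lower (-1.40 ± 0.11). By the mean of its probe sets Itgav was 1.92-fold higher (0.94). Cd226, the activating receptor that shares its ligand with Tigit, was at 10.47, 10.19, 10.30 and 10.51 in memory and 4.72, 8.20, 6.14 and 4.97 in PD-1hi. All PD-1hi arrays lay below memory, but they spanned over 3 units, with replicate 2 the highest. The difference was -4.36 ± 0.58 (20.5-fold lower, adjusted p = 1.41e-05), and -5.09 without PD-1hi replicate 2. On the PD-1int arrays Cd226 was at 7.81, 9.79, 8.94 and 7.34, also highest on replicate 2.

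Cytotoxic molecules were mostly higher, with 14 of 23 measured members higher, 4 lower and 5 not called (median 0.49). The calls covered 78.3% of the list, against 21.9% of all genes. Gzmb, granzyme B, was at 9.26, 9.12, 9.41 and 9.52 in memory and 12.97, 13.04, 13.16 and 13.13 in PD-1hi, 13.4-fold higher (3.75 ± 0.17, adjusted p = 2.68e-11). Gzmk, granzyme K, read 9.58, 9.69, 9.79 and 9.70 against 12.80, 12.93, 12.99 and 12.95 (3.23 ± 0.19, 9.38-fold higher). Granzyme M moved the other way. Gzmm was at 12.18, 12.14, 12.09 and 12.12 in memory and 7.73, 7.66, 7.75 and 7.28 in PD-1hi, 23.1-fold lower (-4.53 ± 0.12, adjusted p = 3.49e-14), while naive cells averaged 7.55. Memory arrays thus lay above both other groups for this gene. Fasl, the ligand of the death receptor Fas, was 3.07-fold higher (1.62 ± 0.08). The other members that were lower were Lamp1, a protein of lytic granule membranes (-0.92 ± 0.14), the protease Ctsw (-0.89 ± 0.08) and Ctla2b (-0.57 ± 0.14). Ctla2b has a near-identical neighbour, Ctla2a, so its probe set can take signal from both.

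Secreted chemokines and cytokines divided, with 7 higher, 5 lower and 9 not called among 21 measured. The calls covered 57.1% of the list, against 21.9% of all genes. Ccl3, a chemokine that attracts monocytes and T cells, had the largest rise of the comparison. It was at 6.66, 6.60, 6.90 and 7.03 in memory and 12.09, 12.25, 12.25 and 12.37 in PD-1hi, 43.5-fold higher (5.44 ± 0.27, adjusted p = 8.74e-11). Ccl4, its neighbour and relative, was 8.37-fold higher (3.06 ± 0.21). Ifng, the effector cytokine interferon gamma, read 6.72, 6.75, 6.82 and 6.85 against 10.88, 10.87, 11.26 and 11.26 (4.28 ± 0.20, 19.5-fold higher). Among the lower members, Ltb, lymphotoxin beta, read 12.28, 12.48, 12.42 and 12.28 in memory against 9.99, 10.58, 10.40 and 10.33 (-2.04 ± 0.10, 4.12-fold lower). Xcl1, a chemokine for cross-presenting dendritic cells, was 5.33-fold lower (-2.41 ± 0.24). Tnf was at 7.58, 7.59, 7.38 and 7.36 in memory and 6.33, 6.55, 6.39 and 6.40 in PD-1hi (-1.06 ± 0.13, 2.09-fold lower, adjusted p = 8.03e-06). Lta was lower by little (-0.35 ± 0.09), and Il2 sat near the bottom of the scale in both subsets (-0.56 ± 0.16, adjusted p = 0.0169), with overlapping arrays and its call lost without PD-1hi replicate 4 (adjusted p = 0.0573) or memory replicate 4 (0.0692). Ifng and Tnf, both hallmark cytokines of CD8 T cells, therefore had opposite signs. Il10 (3.20 ± 0.28) and Csf1 (3.07 ± 0.23) also rose and were chosen after their values were seen.

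Killer lectin-like receptors were lower in 9 of 17 measured members and higher in 2 (median -0.65), 64.7% called against 21.9% of all genes. Klra9 and Klra6 belong to the Ly49 family of MHC class I receptors. Klra9 read 8.41, 8.03, 7.88 and 8.18 in memory against 4.36, 4.72, 4.38 and 4.26 (-3.69 ± 0.25, 12.95-fold lower), and naive cells averaged 4.24. Klra6 was 10.2-fold lower (-3.35 ± 0.23), and Klri2 2.07-fold lower (-1.05 ± 0.09). Ly49 genes are close copies of each other, so a probe set may take signal from several, and 6 listed members of the family were not analysed here. Klrg1, a marker of terminally differentiated effectors, was the clear exception, at 6.75, 6.53, 6.78 and 7.69 in memory against 9.97, 9.79, 9.64 and 9.51 (2.79 ± 0.22, 6.93-fold higher). Klrb1f rose less (0.95 ± 0.28, adjusted p = 0.0198) and lost its call without PD-1hi replicate 3 (adjusted p = 0.0753) or 4 (0.0664). The count of lower members fell to 5 where the 40% dimmest genes were left out.

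Costimulatory receptors and ligands were higher in 13 and lower in 7 of 27 measured (median 0.47), 74.1% called against 21.9% of all genes. Tnfrsf9, the costimulatory receptor 4-1BB that is switched on by antigen, was at 7.90, 7.77, 7.45 and 7.88 in memory and 10.76, 10.52, 10.25 and 10.92 in PD-1hi, 7.28-fold higher (2.86 ± 0.15, adjusted p = 1.47e-10). Tnfrsf1b, TNF receptor 2, was 2.36-fold higher (1.24 ± 0.11). Tnfsf8, the ligand of CD30, read 9.58, 9.40, 9.74 and 9.80 against 5.85, 5.57, 5.69 and 5.64 (-3.94 ± 0.13, 15.3-fold lower). Crtam, a class I-restricted T-cell adhesion molecule, was 5.79-fold lower (-2.53 ± 0.18). Neither set of arrays overlapped in these 4 genes.

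The T-cell receptor complex and its proximal signalling proteins were higher in 10 and lower in 4 of 23 measured. Of these 60.9% were called, against 21.9% of all genes, and the differences were small (median 0.14). The largest was that of Ptpn6, the phosphatase SHP-1, at 11.75, 11.58, 11.58 and 11.62 in memory and 9.49, 9.44, 9.38 and 9.37 in PD-1hi, 4.62-fold lower (-2.21 ± 0.09, adjusted p = 4.49e-12). Ubash3b, the phosphatase STS-1, rose 2.36-fold (1.24 ± 0.10), and Cblb, a ubiquitin ligase that restrains activation, 1.71-fold (0.78 ± 0.08). The kinase Fyn rose 1.44-fold (0.52 ± 0.06). Vav1 (-0.38 ± 0.09), Prkcq (-0.33 ± 0.09) and Cd8b1 (-0.28 ± 0.07) were lower by small amounts. Prkcq lost its call without memory replicate 1 (adjusted p = 0.0544), and Cd8b1 under quantile normalization (adjusted p = 0.0972).

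Early genes and feedback inhibitors induced by receptor signals were higher in 18 and lower in 9 of 44 measured (median 0.13). The calls covered 61.4% of the list, against 21.9% of all genes. Besides Nr4a2, the leading members were Rgs16, a brake on G protein signals, which read 6.22, 6.19, 6.26 and 6.17 in memory against 8.92, 8.03, 8.56 and 8.83 (2.38 ± 0.17, 5.20-fold higher). Dusp1, a phosphatase of MAP kinases, was 4.96-fold higher (2.31 ± 0.17), and Egr1, an early-response transcription factor, 3.19-fold (1.67 ± 0.12). Their groups did not overlap. The AP-1 genes Fos (0.07 ± 0.19) and Jun (-0.35 ± 0.26), chosen after their values were seen, did not pass. Myc, which drives growth on activation and was chosen in the same way, was 4.12-fold lower (-2.04 ± 0.19).

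**Figure D3:**
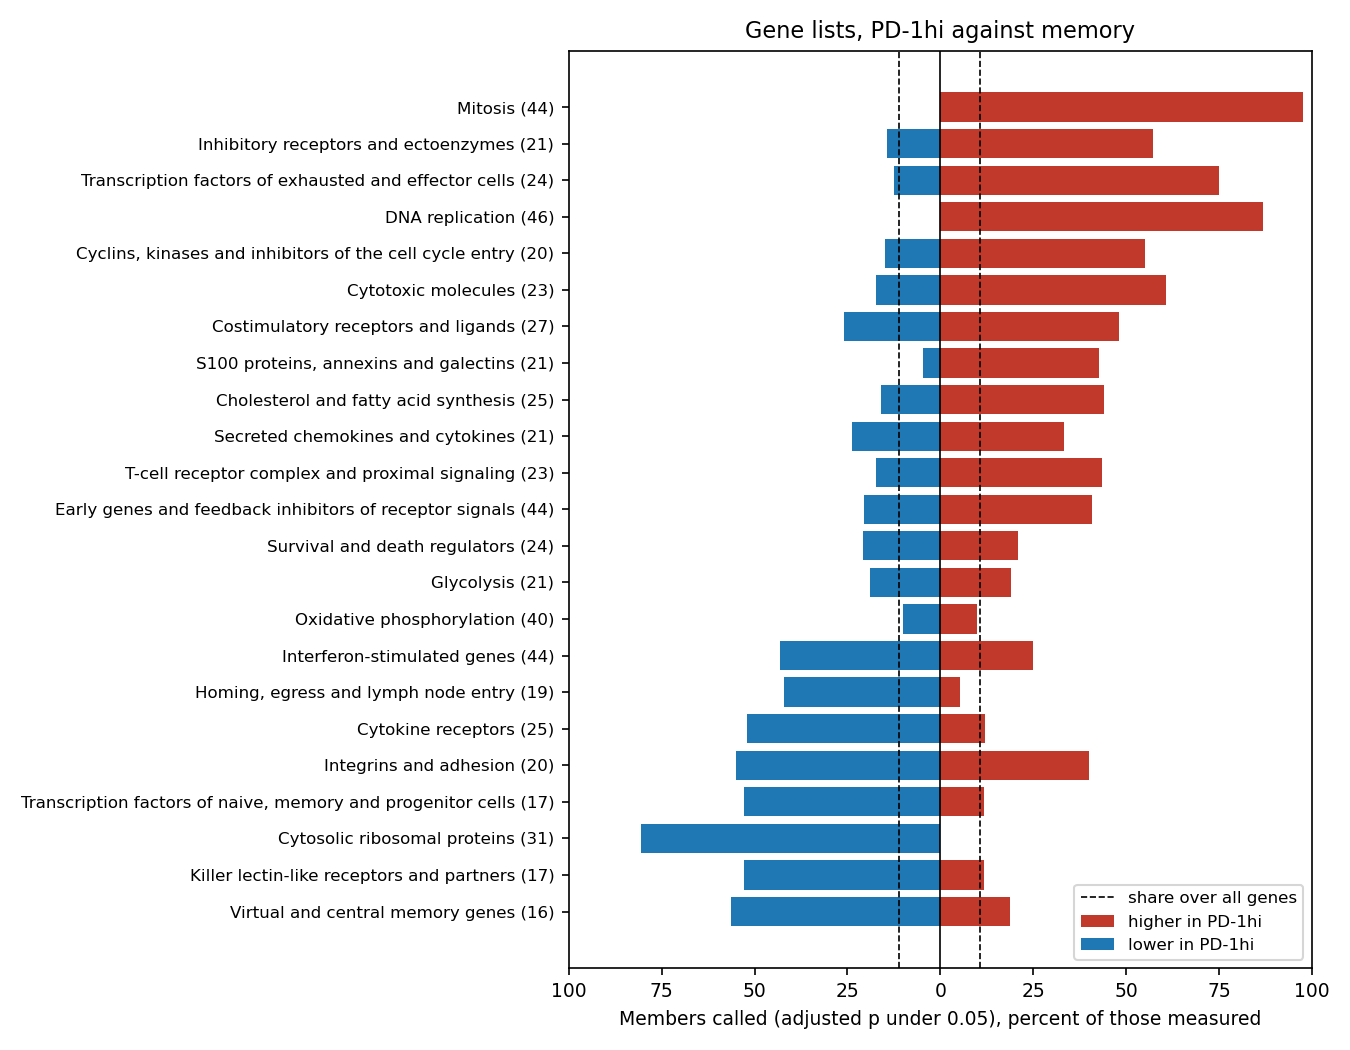
Share of measured members called higher (right, red) and lower (left, blue) in PD-1hi than in memory for 23 gene lists, ordered by their median difference, with the number measured in parentheses. The dashed lines mark the shares over all genes, 10.8% and 11.1%, and mitosis stands at the high end with 43 of 44 members higher.

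Genes of cell division showed the most uniform rise among the lists. Of 44 measured mitosis genes 43 were higher and none lower (median 1.85), and the one not called, Racgap1, a regulator of cytokinesis, differed by 0.19 ± 0.10 (adjusted p = 0.245). The same limma test over all genes called 10.8% higher. Cenpa, the histone variant of centromeres, was at 8.65, 8.23, 8.07 and 8.52 in memory and 10.17, 10.01, 10.10 and 9.91 in PD-1hi, 3.21-fold higher (1.68 ± 0.14, adjusted p = 6.86e-08). Kif20a, a kinesin of the central spindle, was 3.51-fold higher (1.81 ± 0.17). Hmmr, a spindle protein, ran from 6.26 to 7.51 in memory against 8.91 to 9.39 in PD-1hi (2.20 ± 0.21, 4.60-fold higher). Prc1, which bundles spindle microtubules, was 4.50-fold higher (2.17 ± 0.21).

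Memory arrays were not alike in these genes. As a mean deviation from each gene's average over 16 arrays, the mitosis list stood at 0.125, -0.798, -0.904 and -0.038 on the memory arrays and at 1.584, 1.335, 1.186 and 1.39 on the PD-1hi arrays. Memory replicates 1 and 4 lay above memory replicates 2 and 3, and all 4 lay below the lowest PD-1hi array. Naive arrays ran from -1.66 to -1.52. Leaving out any 1 of the 8 arrays gave 42 or 43 members higher. DNA replication genes showed the same split of the memory arrays, with 40 of 46 higher and none lower (median 0.77). Of that list 87% were called, against 21.9% of all genes. Rpa2, a single-strand binding protein, was 2.26-fold higher (1.18 ± 0.08, adjusted p = 3.43e-09), and Rrm2, a subunit of ribonucleotide reductase, was at 8.47, 7.50, 7.54 and 8.29 in memory against 9.88, 9.72, 9.84 and 9.66 (1.82 ± 0.23). Chaf1a, a chromatin assembly factor, rose 2.29-fold (1.20 ± 0.13) and Mcm10, which loads at origins, 2.12-fold (1.08 ± 0.13).

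**Figure D4:**
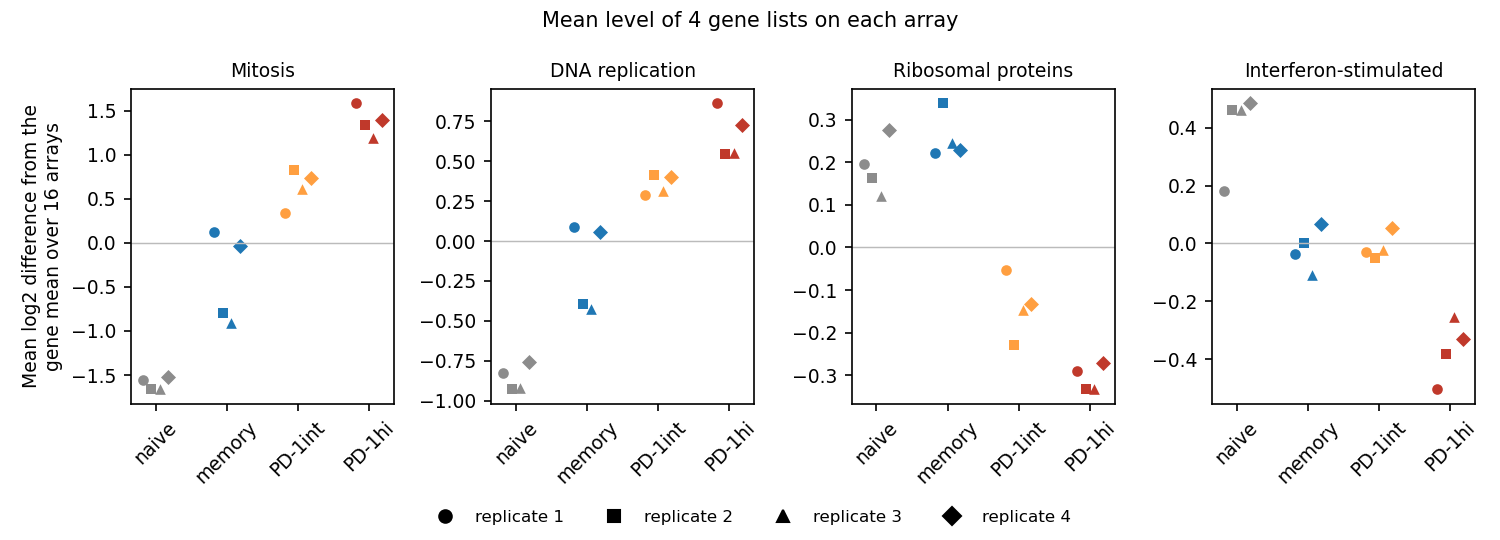
Mean log2 deviation of 4 gene lists from each gene's mean over 16 arrays (y axis), by subset (x axis, color) and replicate number (marker). In mitosis and DNA replication, memory replicates 1 and 4 lie above 2 and 3 and below all PD-1hi arrays, while ribosomal protein and interferon-stimulated genes are lower in PD-1hi than in memory.

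Promoters of the division genes are shown because these members moved together, and their start regions were searched for short words. A link between the words and the rise was not tested. RefSeq promoters of 300 bases, most of them upstream of the annotated start (build GRCm38.p6), were searched on both strands for TTTGAA (the core of the cell cycle genes homology region), CCAAT (the NF-Y word) and GGCGGGAA (an E2F word). None of the words contains another. The promoters found covered 35 genes of the mitosis list and 39 of the DNA replication list. TTTGAA was present in 30 of 38 promoters of the mitosis list (78.9%), in 7 of 46 of the DNA replication list (15.2%) and in 17.9% of all 32851 promoters. CCAAT was present in 76.3%, 63% and 37.4% of the same sets. GGCGGGAA was present in 0 of 38 mitosis promoters, in 15.2% of the replication promoters and in 2.19% of all. A match describes letters only and is not a bound site. Promoters of a single chromosome were left out when those to print were chosen. The mitosis genes with the largest rises whose promoter holds TTTGAA follow, with TTTGAA and CCAAT on either strand in capitals, and then Rrm1, the replication gene with the largest rise whose promoter holds GGCGGGAA, with that word in capitals:
Cdkn3 (chr14:46760291-46760590, + strand): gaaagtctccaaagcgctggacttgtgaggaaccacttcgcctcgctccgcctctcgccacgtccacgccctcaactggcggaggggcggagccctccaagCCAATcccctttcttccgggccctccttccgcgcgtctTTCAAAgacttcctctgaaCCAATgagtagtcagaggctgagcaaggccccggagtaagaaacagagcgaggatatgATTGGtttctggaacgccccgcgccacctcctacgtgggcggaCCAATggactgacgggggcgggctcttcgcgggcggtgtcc
Ube2c (chr2:164769679-164769978, + strand): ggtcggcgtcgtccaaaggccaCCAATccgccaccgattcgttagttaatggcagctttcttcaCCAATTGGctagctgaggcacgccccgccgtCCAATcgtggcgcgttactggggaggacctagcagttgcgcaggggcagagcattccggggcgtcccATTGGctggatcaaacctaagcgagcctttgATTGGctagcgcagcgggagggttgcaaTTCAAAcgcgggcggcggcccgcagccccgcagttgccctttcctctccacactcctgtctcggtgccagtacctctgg
Kif11 (chr19:37376132-37376431, + strand): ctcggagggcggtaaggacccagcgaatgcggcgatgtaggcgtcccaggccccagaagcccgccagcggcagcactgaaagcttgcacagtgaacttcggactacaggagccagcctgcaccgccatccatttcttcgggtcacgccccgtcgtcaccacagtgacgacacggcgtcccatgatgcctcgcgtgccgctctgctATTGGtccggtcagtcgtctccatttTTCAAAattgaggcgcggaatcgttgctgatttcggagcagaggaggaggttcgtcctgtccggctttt
Rrm1 (chr7:102441445-102441744, + strand): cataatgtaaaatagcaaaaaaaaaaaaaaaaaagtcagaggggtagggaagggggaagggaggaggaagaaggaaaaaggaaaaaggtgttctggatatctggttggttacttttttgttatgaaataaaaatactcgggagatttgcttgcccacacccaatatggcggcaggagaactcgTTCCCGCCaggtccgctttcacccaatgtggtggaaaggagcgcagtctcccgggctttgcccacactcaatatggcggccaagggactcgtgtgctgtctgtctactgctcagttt

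The TTTGAA match, read as TTCAAA in all 3 printed mitosis promoters, began at base -111 in Cdkn3, -29 in Ube2c and -19 in Kif11, counted from the annotated start. CCAAT occurred 4 times in Cdkn3, 6 times in Ube2c, where matches on opposite strands overlap, and 1 time in Kif11. Cdkn3, a phosphatase of cyclin-dependent kinases, was at 8.35, 6.91, 7.14 and 7.88 in memory and 10.42, 10.15, 9.92 and 10.24 in PD-1hi (2.61 ± 0.30, 6.11-fold higher). Ube2c, the ubiquitin-conjugating enzyme of the anaphase-promoting complex, rose 4.93-fold (adjusted p = 5.51e-06 by limma), and the spindle motor Kif11 4.82-fold (2.27 ± 0.25). Rrm1, the large subunit of ribonucleotide reductase, rose 2.80-fold (1.49 ± 0.20). Each had PD-1hi arrays above all memory arrays.

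Regulators of cell cycle entry were higher in 11 and lower in 3 of 20 measured (median 0.52), and inhibitors were among the highest. Of that list 70% were called, against 21.9% of all genes. Cdkn1a, the kinase inhibitor p21, was at 6.98, 7.19, 7.05 and 6.96 in memory and 9.88, 8.89, 9.74 and 9.93 in PD-1hi, 5.92-fold higher (2.57 ± 0.17, adjusted p = 2.55e-09). Unlike the mitosis genes, its memory arrays were all alike, near the naive mean of 6.84. Cdkn2c, the inhibitor p18, rose 2.47-fold (1.30 ± 0.14), and the pocket proteins Rbl2 (1.31 ± 0.09) and Rb1 (1.03 ± 0.10) rose beside it. Lower were Tob1, an antiproliferative protein (-0.82 ± 0.17), Cdk4 (-0.53 ± 0.07) and its partner Ccnd2 (-0.42 ± 0.08), the kinase and cyclin of early G1.

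Oxidative phosphorylation and glycolysis had medians near that over all genes (0.01). Oxidative phosphorylation had 8 of 40 members called (20%), near the share of all genes (21.9%), 4 in each direction, with a median of -0.02. Ndufb8, a subunit of complex I, was the strongest at 0.42 ± 0.07, and Sdha of complex II was lower (-0.30 ± 0.07). Also lower were Ndufa9, Ndufs3 and Ndufv1 of complex I, by at most 0.30, each of which lost its call in several alternatives (adjusted p up to 0.152). The count of lower members was as low as 1, under median centring, and that of higher members as high as 8, with trended robust eBayes. Glycolysis had 4 higher and 4 lower of 21 (median 0.01). Of that list 38.1% were called, against 21.9% of all genes and 44.9% of the 5545 brightest. Pdk1, a kinase that inhibits pyruvate dehydrogenase, was at 8.59, 8.55, 8.68 and 8.81 in memory and 6.64, 6.30, 6.63 and 6.67 in PD-1hi, 4.28-fold lower (-2.10 ± 0.10, adjusted p = 4.03e-11). Slc16a1, the lactate transporter MCT1, was 2.67-fold lower (-1.42 ± 0.14). The glucose transporter Slc2a3 was 1.83-fold higher (0.87 ± 0.09) and Pkm, pyruvate kinase, 1.41-fold higher (0.50 ± 0.07). Eno3 was lower (-0.65 ± 0.17), and so was Aldoc (-0.29 ± 0.10, adjusted p = 0.04), a call lost in 8 alternatives (0.0512 to 0.131): quantile normalization and without PD-1hi replicate 2, 3 or 4 or any 1 memory array.

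Of 25 measured genes of cholesterol and fatty acid synthesis, 11 were higher and 4 lower (median 0.27), 60% called against 21.9% of all genes. Among those higher were the sterol enzymes Ebp (0.56 ± 0.09), Pmvk (0.56 ± 0.09) and Msmo1 (0.53 ± 0.09). Fasn, fatty acid synthase, was at 11.04, 10.84, 10.94 and 11.09 in memory against 10.61, 10.16, 10.34 and 10.18 (-0.66 ± 0.10, adjusted p = 4.41e-05). Also lower were Acaca, which supplies its malonyl-CoA (-0.66 ± 0.12), the elongase Elovl6 (-0.81 ± 0.24) and Mvk, a kinase of sterol synthesis (-0.38 ± 0.12, adjusted p = 0.0306). Elovl6 lost its call without PD-1hi replicate 1 or 4 or memory replicate 2 or 3 (0.0532 to 0.0793), and Mvk without PD-1hi replicate 1, 3 or 4 or any 1 memory array (0.0504 to 0.0905). The count of lower members varied from 2 to 5.

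Ribosomal protein genes fell together. Of 31 measured, 25 were lower, none higher and 6 not called (median -0.53, against 0.01 over all genes). The calls covered 80.6% of the list, against 21.9% of all genes. Rpl32 was at 10.86, 11.01, 10.98 and 10.98 in memory and 10.04, 10.06, 10.04 and 10.04 in PD-1hi, 1.88-fold lower (-0.91 ± 0.08, adjusted p = 1.49e-07). Rps28 was 2.02-fold lower (-1.02 ± 0.10), Rps19 1.85-fold (-0.88 ± 0.09) and Rpl14 1.72-fold (-0.78 ± 0.07). The list's mean deviation was 0.221 to 0.338 on memory arrays and -0.333 to -0.272 on PD-1hi arrays, without overlap, and 0.121 to 0.275 on naive arrays. Ribosomal protein genes have many processed copies in the genome, and the probe sets may take signal from expressed ones.

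Interferon-stimulated genes were lower in 19 and higher in 11 of 44 measured (median -0.21), 68.2% called against 21.9% of all genes. Usp18, which removes ISG15 and damps the type I interferon receptor, was at 9.65, 9.69, 9.57 and 9.48 in memory and 7.33, 6.98, 7.53 and 7.63 in PD-1hi, 4.70-fold lower (-2.23 ± 0.12, adjusted p = 2.57e-10). Oas3, an antiviral sensor of double-stranded RNA, was 4.16-fold lower (-2.06 ± 0.14), Cmpk2 3.88-fold (-1.95 ± 0.15) and Rtp4 2.24-fold (-1.16 ± 0.11). The 11 that were higher held guanylate-binding proteins and antigen-processing genes, chosen for mention after their values were seen. The largest of them was Gbp5, at 8.44, 8.88, 8.58 and 8.77 in memory against 9.50, 9.65, 9.77 and 9.51 (0.94 ± 0.13, 1.92-fold higher). Ifnar2, a chain of the type I interferon receptor and chosen in the same way, was 2.83-fold lower (-1.50 ± 0.10).

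Survival and death regulators were higher in 5 and lower in 5 of 24 (median 0.03). The share called was 41.7%, against 21.9% of all genes and 44.9% of the 5545 brightest. Casp1 and Casp4, the inflammatory caspases, led the rises. Casp1 read 8.44, 8.73, 8.27 and 8.97 in memory against 10.93, 10.92, 11.16 and 11.31 (2.48 ± 0.16, 5.57-fold higher), and Casp4 was 5.66-fold higher (2.50 ± 0.16). Bcl2, the survival protein sustained by interleukin 7, was at 12.93, 12.73, 12.99 and 12.92 in memory and 12.31, 11.79, 12.15 and 12.24 in PD-1hi, 1.71-fold lower (-0.77 ± 0.15, adjusted p = 0.000594). The death promoter Bbc3, known as PUMA, was lower too (-1.22 ± 0.10, 2.33-fold). The survival kinase Pim2 (-1.07 ± 0.11), the death receptor gene Tnfrsf10b (-0.95 ± 0.16) and the adaptor Traf1 (-0.32 ± 0.09) completed the lower members, and Traf1 lost its call without PD-1hi replicate 1 or 4 or memory replicate 4 (adjusted p 0.0514 to 0.0628).

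S100 proteins, annexins and galectins, which rise in antigen-experienced T cells, were higher in 9 and lower in 1 of 21 (median 0.29). The share called was 47.6%, against 21.9% of all genes and 44.9% of the 5545 brightest. S100a4, a calcium-binding protein tied to motility, was at 10.33, 9.43, 10.36 and 10.44 in memory and 12.06, 12.21, 12.48 and 12.22 in PD-1hi (2.10 ± 0.18, 4.29-fold higher). Lgals3, galectin 3, rose 2.86-fold (1.52 ± 0.14), the annexin Anxa2 2.52-fold (1.33 ± 0.10) and S100a10, its partner, 1.44-fold (0.52 ± 0.07). Lgals9, a ligand of TIM-3, was the single lower member (-0.59 ± 0.09, adjusted p = 8.33e-05).

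Genes of virtual and central memory cells were lower in 9 and higher in 3 of 16 (median -0.67), and the list shares Il7r with the sort gates. Of that list 75% were called, against 21.9% of all genes. Dapl1, a gene of quiescent naive and memory T cells, was at 10.43, 10.76, 10.43 and 10.86 in memory and 6.62, 6.81, 6.63 and 6.56 in PD-1hi, 15.6-fold lower (-3.97 ± 0.10, adjusted p = 1.51e-14). Ly6c2 encodes a surface protein of memory cells. It read 13.26, 13.28, 13.50 and 13.36 in memory against 8.96, 10.87, 10.12 and 8.98 (-3.61 ± 0.32, 12.3-fold lower). Its PD-1hi arrays spread over nearly 2 units with replicate 2 the highest, as for Cd226 and Il7r, and the near-identical Ly6c1 can share its signal. The PD-1int arrays of Ly6c2 read 11.92, 12.66, 12.19 and 11.48, also highest on replicate 2. Cd27, a costimulatory receptor kept by memory cells, was higher in PD-1hi (0.58 ± 0.10), along with Eomes and Itga4. For Itga4 memory was the lowest subset, with a mean of 11.05 against 12.23 in naive, 12.94 in PD-1int and 12.84 in PD-1hi cells. Its rise is therefore not that of a gene high in memory.

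The 15 largest rises and 15 largest falls held genes outside the lists. Car5b, a mitochondrial carbonic anhydrase, was at 7.37, 7.03, 6.53 and 7.01 in memory and 11.28, 11.34, 11.46 and 11.53 in PD-1hi, 21.4-fold higher (4.42 ± 0.16, adjusted p = 3.21e-12). Med7, a subunit of the Mediator complex, was 15.3-fold higher (3.94 ± 0.16) by its brightest probe set and 4.75-fold higher (2.25) by the mean of its probe sets. Cers6, a ceramide synthase, was 12.01-fold higher (3.59 ± 0.19). Adgrg1, the adhesion receptor GPR56 of cytotoxic lymphocytes, read 6.12, 5.90, 6.00 and 5.91 against 9.90, 10.21, 9.35 and 10.18 (3.92 ± 0.17, 15.2-fold higher). Cemip2, a cell surface protein that acts on hyaluronan, rose 9.48-fold (3.24 ± 0.15). No array of PD-1hi reached a memory value in these.

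Among the falls outside the lists, Treml2, a receptor of the TREM family, read 10.21, 10.19, 10.16 and 10.15 in memory against 5.56, 5.21, 5.61 and 5.43 (-4.72 ± 0.18, 26.4-fold lower). Trim30c was 23.3-fold lower (-4.54 ± 0.22), with the caution that the Trim30 genes are close copies. Samd3, which encodes a protein with a SAM domain, read 11.54, 11.38, 11.38 and 11.46 against 8.15, 7.64, 7.81 and 6.46 (-3.92 ± 0.24, 15.2-fold lower), PD-1hi replicate 4 the lowest. Fcgrt, the neonatal Fc receptor that salvages IgG and albumin, was 14.6-fold lower (-3.87 ± 0.16).

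**Figure D5:**
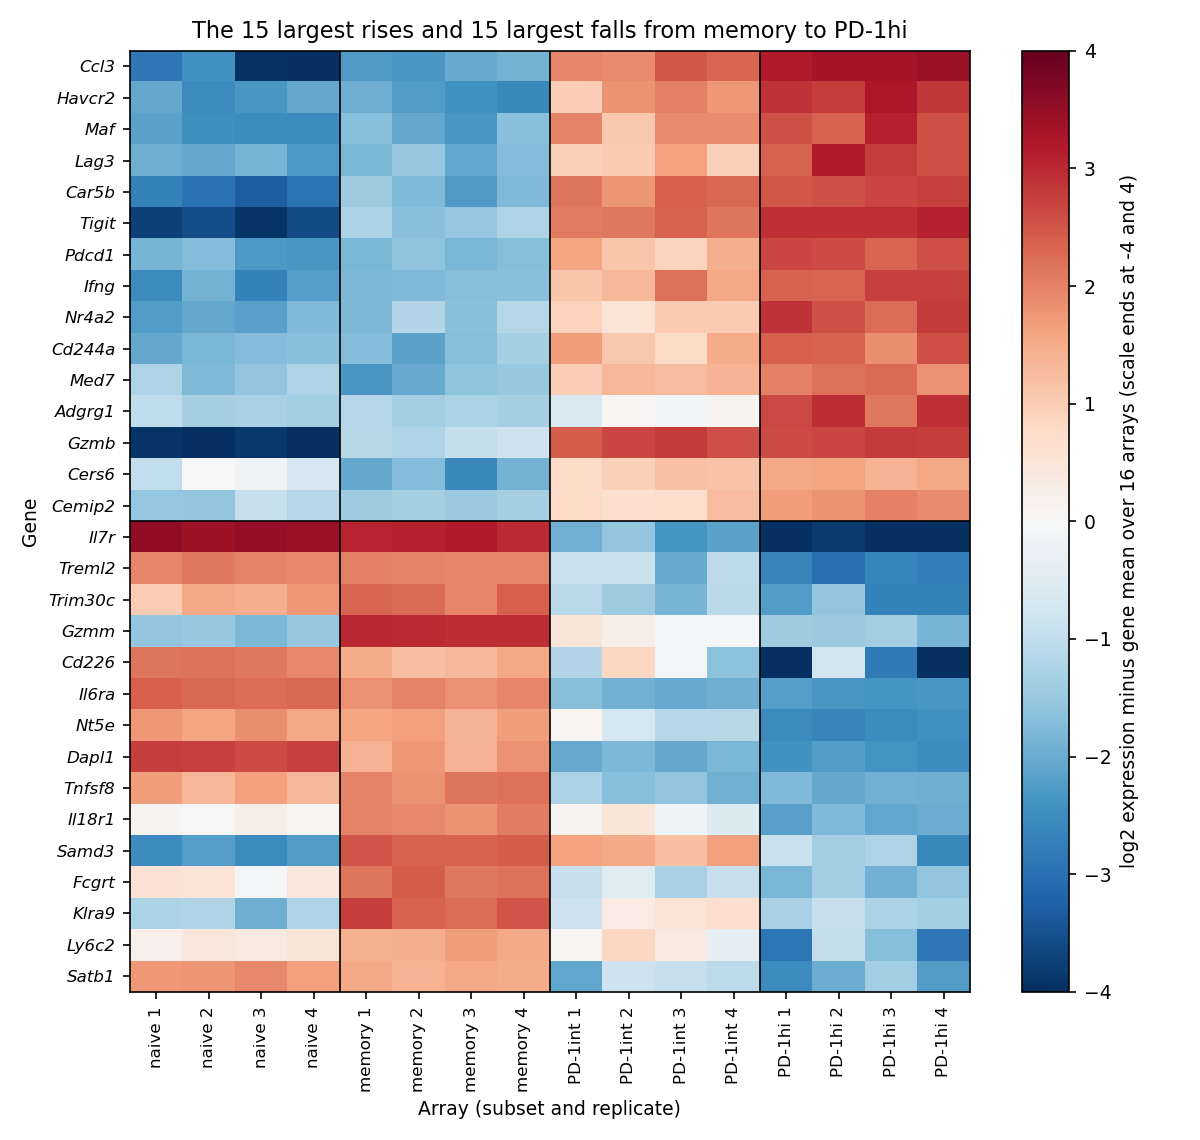
Log2 expression minus the gene's mean over 16 arrays (color, red high and blue low, scale ending at -4 and 4) for the 15 largest rises and 15 largest falls from memory to PD-1hi (rows), on each naive, memory, PD-1int and PD-1hi array (columns). PD-1int arrays share the sign of PD-1hi arrays for most rows, Adgrg1 and Samd3 among the exceptions.

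MicroRNA genes were read from probe sets of the primary transcript or hairpin, which do not separate the arms or measure mature microRNA. They lie outside the rule for named genes and were chosen after their values were seen. Of 472 tested, 11 were higher and 21 lower (6.78% called, against 21.9% of all genes), and at least 2-fold changes were 1 higher and 11 lower. Mature sequences from RefSeq (GRCm38.p6) are given for Mir146, the single gene at least 2-fold higher, for Mir1967, the largest fall, and for Mir342, one of the other falls, with the seed, bases 2 to 8, in capitals:
miR-146a-5p (chr11:43374435-43374456, - strand): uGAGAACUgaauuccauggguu
miR-1967 (chr8:124022688-124022710, + strand): uGAGGAUCcuggggagaagaugc
miR-342-3p (chr12:108658680-108658702, + strand): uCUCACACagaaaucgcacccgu

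Mir146, the gene of miR-146a, a brake on NF-kappa-B signalling in lymphocytes and myeloid cells, was at 3.87, 3.26, 3.39 and 3.47 in memory and 6.74, 5.72, 6.60 and 5.97 in PD-1hi, 6.77-fold higher (2.76 ± 0.25, adjusted p = 1.46e-07). Mir342 was at 7.91, 8.86, 8.24 and 9.02 in memory and 7.19, 5.99, 5.34 and 6.58 in PD-1hi, 4.70-fold lower (-2.23 ± 0.34, adjusted p = 7.15e-05). Neither gene's groups overlapped. The memory values of Mir146 lay near the bottom of the scale, where differences can be compressed. Mir342 lies within Evl, an actin regulator that was itself 3.67-fold lower (-1.87 ± 0.09), and the RNA of the microRNA gene and of its host cannot be told apart here. Mir1967, which lies within Urb2, was at 6.55, 6.70, 7.99 and 7.42 in memory and 4.45, 4.47, 3.99 and 4.12 in PD-1hi (-2.91 ± 0.39). Its groups did not overlap either, and its PD-1hi values also lay near the bottom of the scale. Mir1949 (-2.56) and Mir701 (-2.39) also fell by more than Mir342. The seeds of the printed sequences differ, and no seed recurred among the microRNA genes with a RefSeq sequence that changed at least 2-fold.

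The effector subset with intermediate PD-1 was read beside both. Between PD-1hi and PD-1int, 734 genes changed (3.31%), 303 higher (1.37%) and 431 lower (1.94%) in PD-1hi. The count was 470 without PD-1int replicate 1 and 474 without PD-1hi replicate 4. Between PD-1int and memory 3584 changed (16.2%), 1884 higher (8.49%) and 1700 lower (7.66%) in PD-1int. These comparisons share arrays with the main one, so their values are given side by side only. Havcr2 averaged 5.47 in memory against 9.40 and 10.69 in the PD-1int and PD-1hi subsets, and the last step passed by itself (1.30 ± 0.19, adjusted p = 0.000518). Inhibitory receptors and ectoenzymes were higher in 10 and lower in 2 of 21 members in PD-1hi against PD-1int. Csf1, a growth factor of macrophages chosen after its value was seen, averaged 6.51, 6.90 and 9.58 in the same order of memory, intermediate and high, and Adgrg1 5.98, 7.12 and 9.91. Both differed between the effector subsets (2.68 ± 0.23 and 2.79 ± 0.17, adjusted p = 2.33e-06 and 1.37e-07). Samd3 averaged 11.44, 10.53 and 7.52 in the same order and was lower in PD-1hi than in PD-1int (-3.01 ± 0.24, adjusted p = 9.62e-07).

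Other genes had nearly their whole difference already in PD-1int cells. Gzmb averaged 9.33, 12.98 and 13.08 in the order memory, intermediate and high (PD-1hi minus PD-1int 0.10 ± 0.17, adjusted p = 0.875). Ccr7 averaged 9.88, 7.17 and 6.89 (-0.28 ± 0.15, adjusted p = 0.436), and Tnfsf8 9.63, 5.99 and 5.69 (-0.30 ± 0.13, adjusted p = 0.3). Cytotoxic molecules were still higher in 1 and lower in 3 of 23 between the effector subsets, Gzmm (-1.72) among the lower. Mitosis genes were higher in 13 of 44 with none lower (median 0.78). Over all genes 1.37% were higher and 1.94% lower in PD-1hi than in PD-1int. Interferon-stimulated genes were lower in 15 of 44 and higher in none. Cmpk2 averaged 8.98, 8.78 and 7.03 in that order, the second step -1.76 ± 0.15 (adjusted p = 1.57e-06). In Klrg1 and Cx3cr1 the order turned, since PD-1int was above PD-1hi. Klrg1 averaged 10.63 in PD-1int and 9.73 in PD-1hi (-0.90 ± 0.22, adjusted p = 0.0324), and Cx3cr1 10.91 and 10.20 (-0.70 ± 0.16, adjusted p = 0.0185).

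Defining CD8 T-cell genes were bright in both subsets. Cd8a read 11.62, 11.73, 11.61 and 11.63 in memory against 11.52, 11.59, 11.19 and 11.54 (-0.19 ± 0.10, adjusted p = 0.212), Cd3e was slightly higher in PD-1hi (0.44 ± 0.06), as was Cd3g (0.44 ± 0.07). Markers of other cells were read as a check of the sort. Of 19 B-cell and CLL genes 4 were lower in PD-1hi and none higher, 21.1% called against 21.9% of all genes, with a median of -0.04. Ighm, the IgM heavy chain, was at 12.27, 12.32, 12.26 and 12.40 in memory and 9.31, 8.56, 8.27 and 9.64 in PD-1hi (-3.37 ± 0.26, 10.3-fold lower), and its naive mean was 12.63. By the mean of its probe sets Ighm was 1.72-fold lower (-0.79). Cd22 (-2.37 ± 0.12), Cd79b (-0.82 ± 0.13) and Pou2af1 (-0.40 ± 0.10) also fell. The summed linear signal of the 19 genes was 7124 to 8090 on memory arrays, 1816 to 2552 on PD-1hi arrays and 7734 to 8715 on naive arrays. Without Ighm it was 2170 to 2677 in memory and 1506 to 1751 in PD-1hi. The B-cell genes Cd79a (0.04 ± 0.19), Ms4a1 (0.08 ± 0.17) and Pax5 (-0.14 ± 0.09) did not pass and lay between 5.18 and 6.51 on all 8 arrays. The part of B-lineage RNA in the differences was not tested.

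Among 24 myeloid and dendritic cell genes 3 were higher in PD-1hi, 12.5% called against 21.9% of all genes, with a median of 0.14. Cd68, a lysosomal protein of macrophages, was at 8.45, 8.32, 8.41 and 8.37 in memory and 10.48, 11.23, 11.26 and 10.98 in PD-1hi (2.60 ± 0.17, 6.07-fold higher). Itgam, the CD11b chain that activated T cells can also express, rose 2.54-fold (1.35 ± 0.20), and Lyz2 by 0.53 ± 0.19 (adjusted p = 0.0492), a call lost without PD-1hi replicate 1, 2 or 4 or memory replicate 1, 2 or 4 (0.0556 to 0.159). The macrophage genes Csf1r (0.28 ± 0.14) and Adgre1 (0.05 ± 0.11) did not pass and lay between 5.82 and 7.03. The summed signal of the 24 genes was 3958 to 4166 on memory arrays and 5161 to 6630 on PD-1hi arrays. Most of that gap was Cd68, and without it the sums overlapped, at 3619 to 3841 and 3726 to 4187. The part of myeloid RNA in the differences was not tested.

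Of 10 CD4 and regulatory T-cell genes, Ctla4 (3.13 ± 0.13) and Ikzf4 (0.90 ± 0.14) were higher, while Cd4 (0.08 ± 0.11) and Foxp3 (-0.13 ± 0.10) did not pass and lay between 5.74 and 6.38. Of that list 20% were called, against 21.9% of all genes. Of 10 natural killer and unconventional T-cell genes, Itga2 was higher (1.86 ± 0.19), Klrb1c (-1.23 ± 0.19) and Tyrobp (-0.65 ± 0.15) were lower, and Ncr1 was near 5.8 throughout (0.02 ± 0.09). Ppbp (0.97 ± 0.26) and Car2 (0.67 ± 0.19) of 9 erythroid and platelet genes rose with overlapping arrays, and Car2 lost its call without PD-1hi replicate 1 (adjusted p = 0.0653) or memory replicate 3 (0.0562). Pecam1 alone fell among 11 stromal and endothelial genes (-2.64 ± 0.17, 6.24-fold), a gene that naive T cells also express, with a naive mean of 10.94. Summed signals in PD-1hi and memory were 3334 to 4247 and 3116 to 3380 for the CD4 list, 1875 to 2504 and 1268 to 1515 for the natural killer list, 1113 to 1207 and 1026 to 1135 for the erythroid list, and 1141 to 1218 and 1638 to 2014 for the stromal list. Without Itga2 the natural killer sums overlapped (774 to 1001 and 947 to 1109), as did the stromal sums without Pecam1 (1041 to 1052 and 982 to 1098) and the CD4 sums without Ctla4 (2695 to 3586 and 3052 to 3307). The shares called were 30% of the natural killer list, 22.2% of the erythroid list and 9.09% of the stromal list. The part of these lists in the differences was not tested.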

How the data were processed

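RNA of sorted splenic CD8 T cells was hybridised to 16 arrays, 4 per subset, of which 8 (PD-1hi and memory) are compared here. The deposited values are log2 expression per probe set, made by the authors with Affymetrix Power Tools per the submitters' processing notes. Its version was not given in the sources used here, nor was the summarisation method, and the log2 base was read from the range, 2.347 to 14.13. Of 41345 probe sets, 23521 carried 1 gene symbol, 1814 several and 16010 none. Entrez identifiers matched 23328 to RefSeq. Where a gene had several probe sets (1082 genes) the brightest stood for it, which left 22180 genes with no filter on dim ones.

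A linear model with 1 mean for each of the 4 subsets and no block was fitted to the 16 arrays in limma 3.58.1 (R 4.3.3), and eBayes moderated the variances. Benjamini-Hochberg adjustment was over all genes. Same-numbered arrays of PD-1hi and memory had correlated deviations of -0.0209 to 0.0941, none of 4 above 0.1. Over all 24 same-numbered pairs of arrays from different subsets the range was -0.0478 to 0.151. The titles repeat the same 4 numbers in every subset without saying that a number marks a mouse. The numbers were not taken as pairs in the main fit, and whether same-numbered arrays share a mouse was not tested. With the number as a block, the standard error of Cd226 was 0.474, against 0.575 without it. For Ly6c2 it was 0.259 with the block and 0.319 without. In both genes replicate 2 was the highest PD-1int array and the highest PD-1hi array, so single genes can share a replicate pattern.

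The members, the 23 gene lists and the 7 marker lists were chosen with earlier results of these data known. Named genes are the 15 largest rises and 15 largest falls among called genes whose arrays do not overlap (predicted loci, small RNAs and receptor segments left out), the sort genes, up to 4 members per list by adjusted p, members against a list's majority where 5 or fewer, and called marker genes. Of 746 listed genes, 664 were measured. In data simulated for PD-1hi against memory over 22180 genes, 53 of 100 genes given a log2 change of 0.5 were called, as were 95 of 100 given a change of 1. Of the 21980 unchanged genes 14 were called. The simulation changed far fewer genes than the 4868 called in the real comparison, which makes the adjusted p threshold stricter there. Its noise was normal and independent between genes and arrays. These rates therefore do not measure the sensitivity of the real comparison. Alternatives were a replicate block, the 8 arrays alone, no dim genes, averaged probe sets, quantile normalization, median centring, trended robust eBayes, array weights and each array left out.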

Additional observations from a re-analysis of the deposited data

Results flagged for a closer look

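A single array stood apart from the other 3 of its subset in 14 of the 314 gene and subset groups examined by Dixon's test, near the 5% that chance gives.

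On memory replicate 2, Fcgrt was at 11.03, where the nearest of the other arrays was at 10.78. That array also stood apart for Ikzf1 (11.54, the lowest, next 11.67), Il21r (10.88, the highest, next 10.71), Fyn (11.37, next 11.33), Rps19 (12.43, next 12.27) and S100a4 (9.43, the lowest, next 10.33). Only the gap of S100a4 came near 1 log2 unit among these.

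Memory replicate 3 was lowest for Ctla4 (6.01, next 6.30) and for Acaca (8.32, next 8.46). Memory replicate 4 was highest for Ndufb8 (9.04, next 8.88) and Bbc3 (7.88, next 7.63). Among PD-1hi arrays, replicate 1 was highest for Kif20a (9.26, next 8.86) and lowest for Cd3e (12.86, next 12.95). PD-1hi replicate 2 was lowest for Pdk1 (6.30, next 6.63), and PD-1hi replicate 3 highest for Ccnd2 (12.37, next 12.20).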

How the results depend on the processing

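Under the 16 alternatives, the counts of 2400 genes higher and 2468 lower in PD-1hi than in memory stayed within 1.5 times. Leaving out each array in turn gave 2117 to 2297 higher and 2163 to 2318 lower, and the other alternatives 2353 to 2519 and 2370 to 2575. With the replicate number as a block, 2391 were higher and 2475 lower, and 748 genes changed between PD-1hi and PD-1int. Of the genes named, the block ended the call of Ndufv1 alone (-0.30, adjusted p = 0.0638). The 734 changes between PD-1hi and PD-1int were 470 to 751 with an array left out, 474 without PD-1hi replicate 4 and 470 without PD-1int replicate 1. The share of calls that are higher ran from 47.7% to 50.8%. Of 2506 values of 157 named genes, 2431 kept direction and call, 75 lost the call (16 genes) and 0 reversed. Fewer arrays are part of the leave-one-out settings, and for the other losses the cause was not tested. The files carry no detection calls, so the limits of dim genes are unknown.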
